A study of Caenorhabditis elegans with 6 samples.

Results

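The arms of chromosome IV were read in consecutive windows of 500 bp, the unit in which the authors counted reads along the whole genome. A window belonged to the left arm when it started at or before 5831000 and to the right arm when it started after 11662500, which gave 11662 left and 11663 right windows, 23325 in all of the 200566 in the table. The libraries were total RNA of early embryo extracts of Caenorhabditis elegans from 3 genotypes, each grown as 2 independent cultures: met-2 set-25 (strain GW638, both genes deleted), cec-4 (strain GW828, that gene deleted) and wild-type (strain GW1). All cultures were grown in liquid at 20 °C on the HB101 strain of E. coli, and embryos were freed from gravid adults with hypochlorite after 60 to 65 h depending on the strain, so the extracts are mixtures of whole embryos.

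In the worm, the enzymes MET-2 and SET-25 place methyl groups on lysine 9 of histone H3 (H3K9), a mark of silent chromatin. CEC-4 is a chromodomain protein at the nuclear envelope that binds this mark and holds it at the nuclear edge. The outer parts of the worm's autosomes are rich in repeats and in this mark, while the centres hold more of the widely expressed genes. Chromosome IV also carries most of the loci of piRNAs, small RNAs that guide silencing in the germline.

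The genotypes were visible in the deleted genes: met-2 reads were at 72.0 to 80.3 CPM (counts scaled to the library total) in met-2 set-25, against 358 to 416 CPM in the other 4 libraries, set-25 reads at 23.1 to 28.4 against 95.3 to 117 CPM, and cec-4 reads at 77.9 to 99.7 CPM in cec-4, against 272 to 316 CPM elsewhere. Maternal early embryo markers (11 of 11 in the gene table) summed to 1213 to 1871 CPM, yolk protein genes of the adult intestine to 0.295 to 0.744 CPM with vit-4 at 0, and sperm markers to 1.09 to 2.29 CPM with msp-3 and msp-10 at 0. Muscle markers were higher in replicate 2 of each genotype, with 523 and 651 CPM in met-2 set-25, 531 and 982 CPM in cec-4 and 509 and 940 CPM in wild-type. Libraries held 63512536 to 92014755 window counts, of which 1471101 to 2155980 fell in the left arm and 1330387 to 2021407 in the right arm.

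Scattered stretches of the arms had more reads in the met-2 set-25 embryos than in those of wild-type. Of 10765 arm windows with enough counts to test, 67 were higher in met-2 set-25 (edgeR quasi-likelihood test, Benjamini-Hochberg adjusted p under 0.05 over all windows), 47 in the left arm and 20 in the right, and 0 were lower. Over the whole genome 0.446% of tested windows were higher and 0.0241% lower in this comparison. The share of tested windows that were higher was 0.791% in the left arm and 0.415% in the right, 0.0451% in the centre of chromosome IV (3 of 6658) and 0.772% in the arms of chromosomes I, II, III and V (353 of 45721), so the left arm lay above the genome-wide share and close to the other arms, and the right arm just below the genome-wide share. In the left arm, 23 of the 47 higher windows lay in a single stretch of 25.5 kb, which held 44 of its 5943 tested windows. The left arm share thus rested in large part on neighbouring windows of that stretch. The difference between the shares of the 2 arms was not tested. At an unadjusted p under 0.05, 438 arm windows were higher and 156 lower, which is 5.52% of those tested in either direction against 4.72% of all windows. Higher windows also outnumbered lower ones over the genome (3253 and 1847) and in the arms of chromosomes I, II, III and V (2092 and 660). DESeq2 called 84 higher and 2 lower, and limma voom 61 higher and 0 lower. The median log2 fold change over all tested arm windows was 0.0016, with 0.0077 in the left arm, -0.011 in the right arm and -0.029 over all windows of the genome. Leaving out met-2 set-25 replicate 1 left 28 higher windows, and leaving out its replicate 2 left 18. The other 12560 arm windows had too few counts to be tested. In whole extracts fewer cells of a type and less RNA per cell cannot be told apart.

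The median level of the 67 windows was 2.70 CPM in met-2 set-25, against 0.489 CPM in cec-4 and 0.570 CPM in wild-type. Over all tested arm windows the medians were 0.674 CPM in met-2 set-25, 0.673 CPM in cec-4 and 0.654 CPM in wild-type, so the wild-type level of the 67 was close to that of the tested windows as a whole. Apart from 1 window with 0 counts in wild-type, log2 fold changes of met-2 set-25 over wild-type ran between 1.16 and 4.31, and the median was 2.40 with that window at its lower bound. In all 67, both met-2 set-25 libraries lay above both wild-type libraries. The windows were chosen by the test on these libraries, so this is no separate support. The cec-4 libraries had no like difference at these windows: the median log2 fold change of cec-4 over wild-type was -0.077, and 23 of the 67 had a positive value. That last value shares its wild-type libraries with the comparison that chose the windows.

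**Figure D1:**
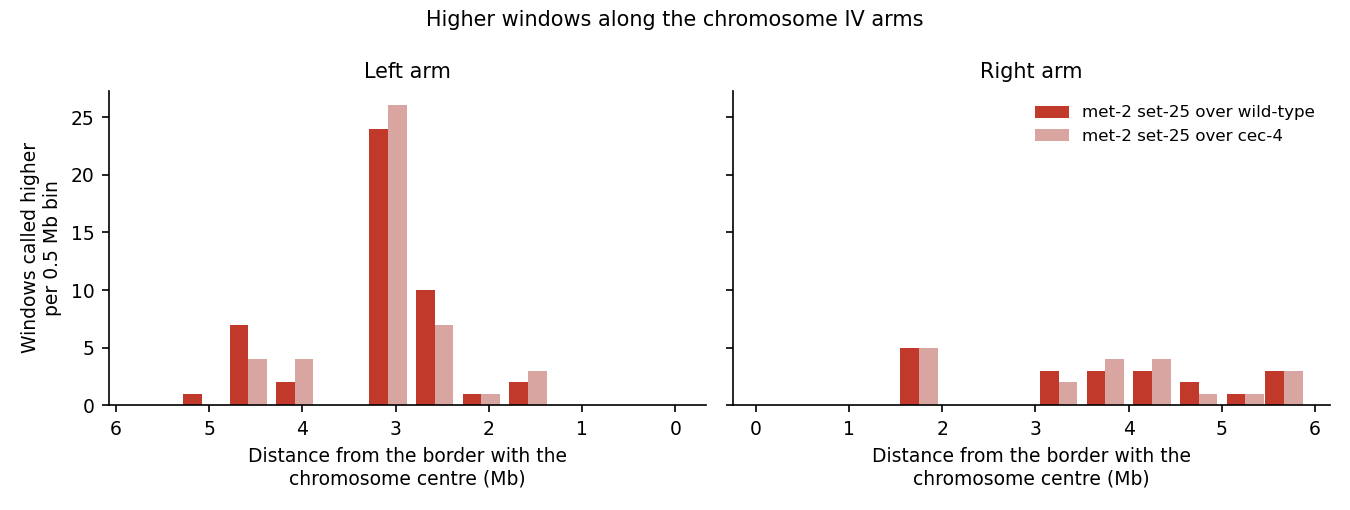
Windows higher in the double mutant met-2 set-25 over wild-type (dark bars) or over cec-4 (light bars) per 0.5 Mb bin, by distance from the border between the arm and the chromosome centre, with the left arm on the left. The tallest bar over wild-type holds 24 windows; no bin within 1 Mb of the centre border holds a call on either arm.

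The higher windows were unevenly spread along the arms. In bins of 0.5 Mb, 24 of the 47 in the left arm lay in the bin that starts at 2500001, 10 in the next and 7 in the bin that starts at 1000001. The 3 left bins next to the chromosome centre held 0 (1199 of their windows were tested), and so did the 3 right bins next to the centre (1624 tested). In the right arm no bin held more than 5. The plot of higher windows by distance from the centre border shows this with the counts over cec-4 beside it. The 67 windows formed 24 clusters when calls within 5 kb were joined. The densest, IV 2894001 to 2919500, held 23 of them in 44 tested windows, all 44 with a positive log2 fold change. The stretch was drawn around these calls, so the 23 were positive by selection, and the 44 positive values are no separate support. Without that stretch 44 windows were higher in the arms.

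Adjoining windows rose together in 34 runs, 22 in the left arm and 12 in the right. Of these, 24 were single windows, 3 were pairs and 7 were runs of 3 or more, which held 37 of the 67 windows. Levels of the runs are given as mean CPM per window of 500 bp in each library, and genes are named from the WBcel235 annotation, whose positions matched the windows best without any shift in 9 of 9 bins of 2 Mb along the chromosome.

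The longest run, 11 windows at IV 2903501 to 2909000 in the left arm, lay wholly in intronic sequence of the pseudogene Y54G2A.21. It had 3.79 and 3.45 CPM per window in met-2 set-25, against 0.482 and 0.492 in cec-4 and 0.623 and 0.468 in wild-type. Both met-2 set-25 libraries stood above the other 4, which overlapped each other. Window by window, log2 fold changes over wild-type were between 2.40 and 3.21, with adjusted p between 0.000309 and 0.0209. A second run of 5 windows, IV 2910501 to 2913000, covered exons of the same pseudogene and had 4.64 and 4.44 CPM in met-2 set-25, against 1.33 and 1.30 CPM in cec-4 and 1.71 and 1.37 in wild-type. The met-2 set-25 libraries again stood above the other 4, but the exonic windows differed by less, with log2 fold changes between 1.44 and 1.62. With 1 further window, 17 of the 67 higher windows lay in Y54G2A.21.

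The genes on both sides of this pseudogene also held higher windows. Y54G2A.36, on the opposite strand at IV 2897694 to 2901651, held 3 of them, and Y54G2A.50 held 2. Y54G2A.36 overlaps the pseudogene Y54G2A.20 on the other strand, whose own gene counts were 11 and 9 in met-2 set-25, 9 and 9 in cec-4 and 8 and 8 in wild-type. Whether counting used strand is not given in these sources, and reads of overlapping genes cannot be told apart in the windows.

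**Figure D2:**
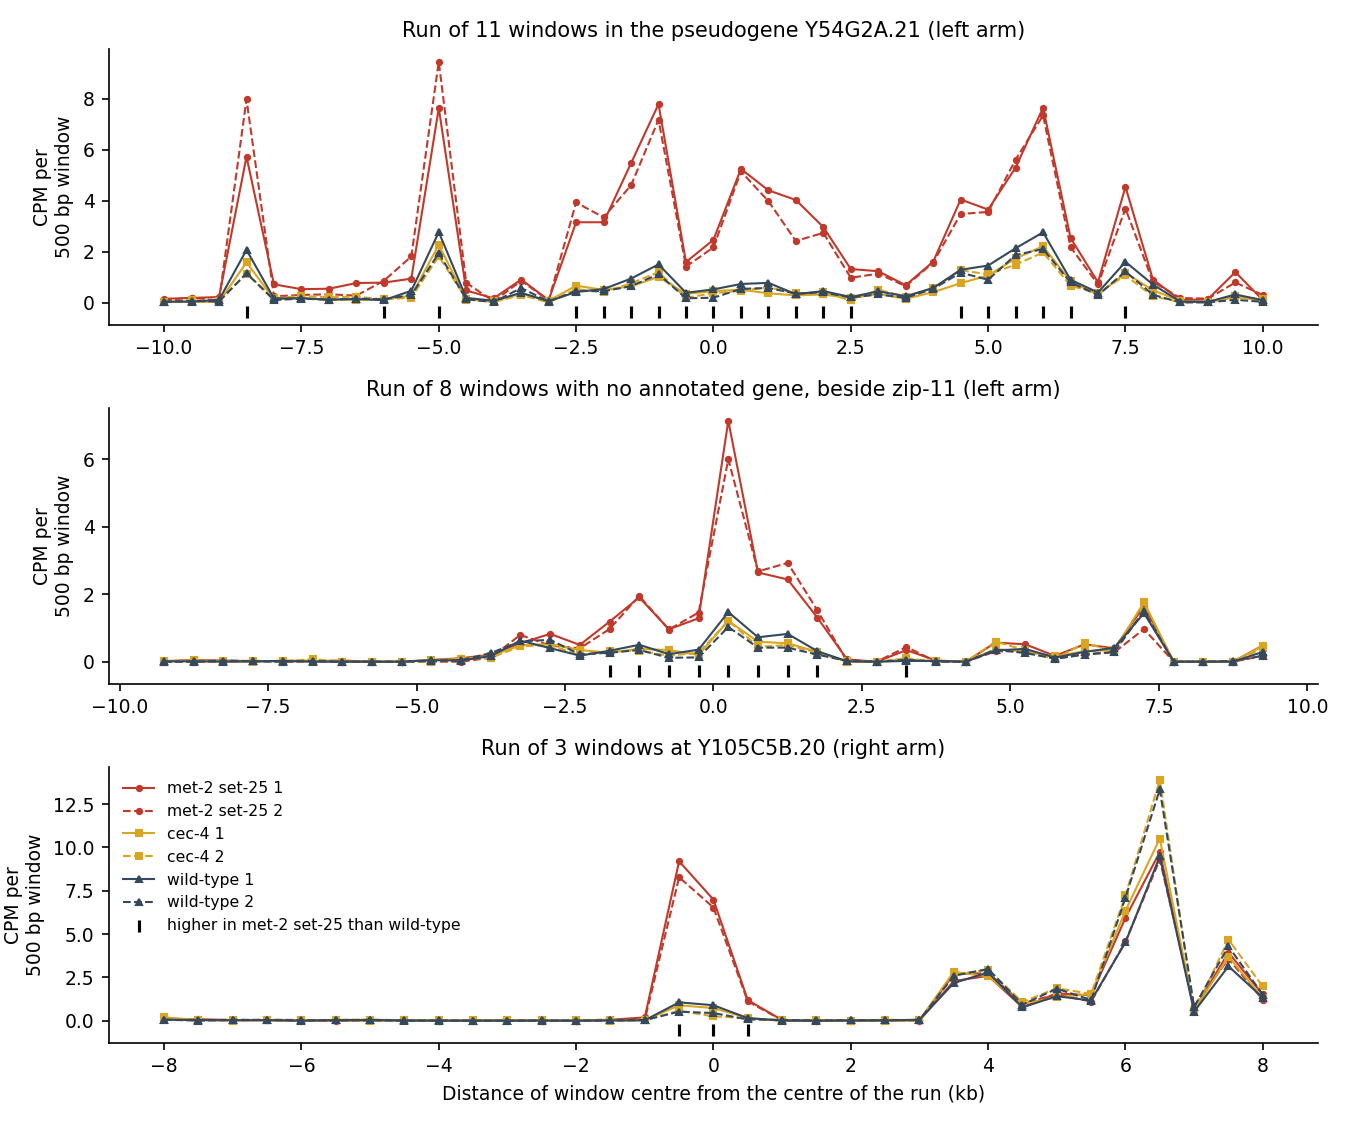
CPM per 500 bp window in every library around 3 runs, by distance from the run's centre; black ticks mark windows called higher in met-2 set-25 over wild-type. Both met-2 set-25 libraries lie above the cec-4 and wild-type libraries within the runs, and in the lowest panel the libraries come together again at jac-1, to the right of the run. The runs were chosen by the comparison with wild-type.

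The second longest run had no annotated gene. Its 8 windows, IV 3313501 to 3317500, began 312 bp after the end of zip-11, which encodes a bZIP transcription factor, and ended 2513 bp before the pseudogene F42A6.3. The run had 2.36 and 2.31 CPM per window in met-2 set-25, against 0.479 and 0.436 in cec-4 and 0.592 and 0.366 in wild-type. The highest window, at 3315501, reached 7.14 and 6.0 CPM in met-2 set-25, against 1.21 and 1.21 in cec-4 and 1.47 and 1.03 in wild-type. Log2 fold changes over wild-type were between 1.86 and 2.49 (adjusted p between 0.00111 and 0.0396). The zip-11 gene itself was not called, with a log2 fold change of -0.13. A further window 1 kb on, IV 3318501, was also higher, with a log2 fold change of 3.25 (SE 0.64, adjusted p = 0.0431).

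The run of 4 windows at IV 1049501 to 1051500 covered Y55F3AM.21 and touched the last bases of srx-12, a gene of a chemoreceptor family. It had 1.99 and 1.87 CPM per window in met-2 set-25, against 0.426 and 0.243 in cec-4 and 0.370 and 0.347 in wild-type. The next gene, dcap-1, encodes an mRNA decapping protein and was not called (log2 fold change 0.13). The gene counts of srx-12 gave a log2 fold change of 2.32, which did not pass (SE 0.58, adjusted p = 0.210).

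In the right arm the 3 runs were each 3 windows long. At Y105C5B.20, IV 15993501 to 15995000, levels were 5.79 and 5.31 CPM per window in met-2 set-25, against 0.591 and 0.320 in cec-4 and 0.698 and 0.343 in wild-type. Its log2 fold changes over wild-type were between 3.34 and 3.46. The neighbour jac-1, a catenin gene whose nearest end lies 2835 bp after the run, was not called (-0.17). At C48D1.9, IV 13208001 to 13209500, levels were 1.81 and 1.40 CPM in met-2 set-25, against 0.149 and 0.0759 in cec-4 and 0.189 and 0.0540 in wild-type. Its log2 fold changes were between 2.86 and 4.27. This run ended 230 bp before cho-1, the choline transporter gene of cholinergic neurons (log2 fold change 0.64, not called). The caspase gene ced-3, 3864 bp on the other side, was not called either (-0.26).

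The third right arm run, IV 15647001 to 15648500, differed from the rest in being well expressed in wild-type. Its windows had 30.3 and 35.0 CPM in met-2 set-25, against 12.8 and 10.7 in cec-4 and 12.9 and 13.2 in wild-type. They covered the pseudogene Y105C5A.14, which overlaps a coding gene on the opposite strand. The log2 fold changes were between 1.16 and 1.46, the lowest of the 7 runs.

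**Figure D3:**
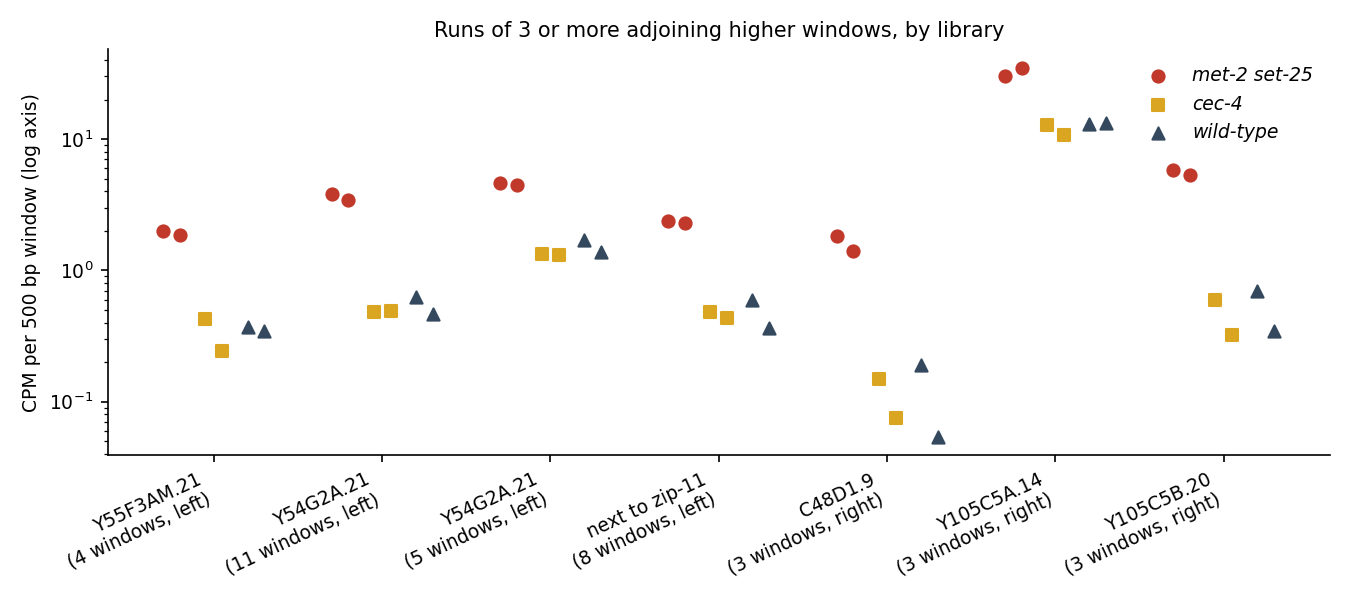
Mean CPM per 500 bp window (log axis) of the 7 runs of 3 or more adjoining higher windows, 1 point per library, with met-2 set-25, cec-4 and wild-type from left to right in each run. In each run the 2 met-2 set-25 points lie above all 4 others, from 1.40 and 1.81 CPM at C48D1.9 to 30.3 and 35.0 CPM at Y105C5A.14. The runs were chosen by the comparison with wild-type.

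Single windows with the largest fold changes had few counts in wild-type. In the left arm, IV 4041001 in F35F11.2 had 43 and 67 counts in met-2 set-25, against 6 and 4 in cec-4 and 6 and 1 in wild-type (log2 fold change over wild-type 4.31, SE 0.59, adjusted p = 0.00319). IV 1515001, where txt-4 and the C-type lectin gene clec-172 meet, had 40 and 51 counts in met-2 set-25, against 8 and 2 in cec-4 and 4 and 3 in wild-type. Window 841001, in an intron of Y55F3BR.6, had 11 and 16 counts in met-2 set-25, 5 and 2 in cec-4 and 0 and 0 in wild-type, which is at least 5.88-fold higher in met-2 set-25 when wild-type is set to a floor of 3 counts per library. The whole gene Y55F3BR.6 averaged 4.46 CPM in met-2 set-25, 6.05 CPM in cec-4 and 5.16 CPM in wild-type and was not called (log2 fold change over wild-type -0.21). In the right arm, IV 13654001 in Y45F10C.6 had 36 and 52 counts in met-2 set-25, against 5 and 6 in cec-4 and 5 and 4 in wild-type. IV 16317001, in an intron of the pseudogene rac-3, had 17 and 17 counts in met-2 set-25, against 10 and 6 in cec-4 and 2 and 1 in wild-type. In these windows the met-2 set-25 libraries did not overlap those of wild-type, which the rule for naming windows required, or those of cec-4. The cec-4 libraries stood between the other genotypes in Y55F3BR.6 and rac-3 without passing the test against wild-type (edgeR adjusted p = 1 for both). A stricter filter, a mean count of at least 10 over all libraries, left the windows in Y55F3BR.6 and rac-3 untested. Their calls in met-2 set-25 were lost in 6 of 14 alternative settings for Y55F3BR.6 and in 8 of 14 for rac-3, in both when either met-2 set-25 or either wild-type library was left out.

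Against annotation, the higher windows were spread unevenly over kinds of sequence. Each window was given the first class it touched, in the order coding gene exon, pseudogene exon, coding gene intron, pseudogene intron, other non-coding RNA gene and piRNA locus. Exons of protein-coding genes held 33 of the 67 (of 7020 tested), pseudogene introns 12 of 31 tested, pseudogene exons 9 of 246, sequence with no annotated gene 10 of 1087, non-coding RNA genes 2 of 128 and coding gene introns 1 of 1776. Of the 12 in pseudogene introns, 11 were the run in Y54G2A.21, so this class is close to a single locus. Over all arm windows, tested or not, pseudogene introns took 0.106% and 0.0967% of arm counts in met-2 set-25, against 0.0235% and 0.0244% in cec-4 and 0.0288% and 0.0218% in wild-type. Pseudogene exons took 0.743% and 0.739% in met-2 set-25, against 0.565% and 0.528% in cec-4 and 0.596% and 0.526% in wild-type. In both classes the met-2 set-25 libraries lay above the other 4, but most of the difference lay in the called windows. Of the 9 called windows in pseudogene exons, 8 lay in Y54G2A.21 and Y105C5A.14. Without the called windows, pseudogene exons took 0.536% and 0.506% in met-2 set-25, against 0.484% and 0.451% in cec-4 and 0.509% and 0.434% in wild-type, and met-2 set-25 and wild-type overlapped. Pseudogene introns then took 0.0187% and 0.0144% in met-2 set-25, against 0.0117% and 0.0116% in cec-4 and 0.0141% and 0.010% in wild-type. In that class the met-2 set-25 libraries lay above the other 4 by a narrow margin. Uncalled windows within Y54G2A.21 also had positive log2 fold changes over wild-type, 1.62 at IV 2909001 and 1.55 at IV 2909501. Whether the remaining margin lay outside that pseudogene was not tested.

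Few of the higher windows held loci of piRNAs. Of 15363 annotated piRNA loci in the genome, 1624 lay on the left and 11619 on the right arm of chromosome IV, and 5672 arm windows contained at least 1. Among the 1627 of these that were tested, 2 were higher in met-2 set-25 over wild-type (0.123%), against 65 of the 9138 tested windows without such a locus (0.711%). In the right arm alone it was 2 of 1264 (0.158%) against 18 of 3558 (0.506%), and in the left 0 of 363 against 47 of 5580 (0.842%). Right arm tested windows with such a locus had lower library medians, 0.312 to 0.392 CPM against 0.925 to 1.02 CPM. The difference between the shares was not tested. Windows that held a piRNA locus and no other annotated gene took 0.391% and 0.369% of arm counts in met-2 set-25, against 0.447% and 0.577% in cec-4 and 0.420% and 0.398% in wild-type. The cec-4 libraries were the highest, and those of met-2 set-25 the lowest, of the 6. This was not particular to piRNA loci. Median log2 fold changes of cec-4 over wild-type were 0.304 in this class, 0.176 with no annotated gene and 0.146 in coding gene introns. For met-2 set-25 over wild-type they were -0.115, -0.120 and -0.0973. Coding gene exons (-0.0409 and 0.0317) and pseudogene exons and introns had the opposite signs. The reads of piRNA windows come from libraries of long RNA and do not measure the piRNAs themselves.

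No arm window passed the test in cec-4 against wild-type, in either direction. Over the genome 0.00185% of tested windows were higher in that comparison (2 windows, both in arms of other autosomes) and 0 were lower. At an unadjusted p under 0.05, 112 arm windows were higher and 88 lower in edgeR, 1.86% of those tested against 1.78% of all windows (883 higher and 1035 lower). DESeq2 and limma voom called 0 higher and 0 lower arm windows as well. The 5 arm windows of smallest p all had an adjusted p of 1. Of these, 2 adjoined in fat-2, a fatty acid desaturase gene: at IV 13323501 there were 38 and 23 counts in cec-4, against 93 and 62 in wild-type, and the met-2 set-25 libraries, with 39 and 35 counts, were also below wild-type. IV 16179001, which holds piRNA loci but no other gene, had 31 and 68 counts in cec-4, against 10 and 18 in wild-type. The other 2 were IV 16146001 in Y105C5B.25, with 0 and 2 counts in cec-4 against 7 and 20 in wild-type, and IV 16009001 in an intron of jac-1, with 65 and 68 counts in cec-4 against 28 and 33 in wild-type.

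Set against cec-4, the met-2 set-25 libraries gave 65 higher arm windows, 45 left and 20 right, against 0.495% over the genome (0.604% of tested arm windows), and 1 lower window against 0.0296%. It shares the met-2 set-25 libraries with the comparison to wild-type, so the 2 lists are not independent. The higher windows formed 32 runs, 7 of 3 or more, and the longest again had 11 windows. The largest log2 fold change was 5.18 (SE 0.72, adjusted p = 0.00338) at IV 1514001 in txt-4, with 33 and 31 counts in met-2 set-25 against 1 and 1 in cec-4 and 4 and 7 in wild-type. The gene counts of txt-4 gave a log2 fold change over cec-4 of 1.70, which did not pass (SE 0.37, edgeR adjusted p = 0.117). IV 1242501 in F38A1.15 had 54 and 45 counts in met-2 set-25 against 5 and 3 in cec-4 and 11 and 7 in wild-type. IV 1727001 in K08D12.8 had 24 and 43 counts in met-2 set-25 against 4 and 1 in cec-4 and 4 and 9 in wild-type.

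The single lower window, IV 1426001 in the C-type lectin gene clec-171, had 47 and 53 counts in met-2 set-25 against 184 and 193 in cec-4 and 130 and 148 in wild-type. Its log2 fold change over cec-4 was -1.57 (SE 0.30, adjusted p = 0.0307). The gene counts of clec-171 gave -1.65 over cec-4, which did not pass (SE 0.31, edgeR adjusted p = 0.0708). Counts in this comparison depended on single libraries: 42 windows were higher without met-2 set-25 replicate 1, 27 without its replicate 2, 27 without cec-4 replicate 2, and 147 and 148 without wild-type replicates 1 and 2, which enter only the shared estimate of spread. The lower count was 0 without met-2 set-25 replicate 2, 3 without its replicate 1, 5 without cec-4 replicate 1, and 22 and 21 without wild-type replicates 1 and 2.

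As a whole, the left arm received a slightly larger share of nuclear reads in both mutants. The shares were 4.03% and 4.01% in met-2 set-25, 3.93% and 3.97% in cec-4 and 3.88% and 3.87% in wild-type, with the mitochondrial chromosome and the last 25 windows of chromosome I left out. The genotypes did not overlap, and the mean difference from wild-type was 0.145 percentage points in met-2 set-25 and 0.0760 in cec-4. As a share of all window counts, with nothing left out, the mean difference was 0.267 in met-2 set-25 and turned to -0.0863 in cec-4. The left arm then took 2.29% and 2.91% in met-2 set-25, 2.42% and 2.08% in cec-4 and 2.53% and 2.14% in wild-type. Both mutants overlapped wild-type, so these differences lay within the replicate spread. The parts left out of the nuclear shares took unequal shares of counts, also between replicates of a genotype. With 2 libraries against 2 the exact permutation test cannot go below 0.333. That value is the two-sided p of both differences in nuclear share (0.636 after adjustment over 21 such tests). The right arm took 3.65% and 3.58% in met-2 set-25, 3.61% and 3.54% in cec-4 and 3.64% and 3.58% in wild-type, and the groups overlapped (exact permutation p = 1 and 0.667). The log2 ratio of left to right arm counts was 0.145 and 0.163 in met-2 set-25, 0.121 and 0.164 in cec-4 and 0.0930 and 0.110 in wild-type.

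A single window carried more of the left arm's difference between met-2 set-25 and wild-type than any run did. IV 4538501, which holds the small nucleolar RNA gene ZK185.9 in an intron of ZK185.2, took 2.23% and 3.25% of all arm counts in met-2 set-25, against 1.59% and 1.24% in cec-4 and 1.75% and 1.35% in wild-type, the largest share of any arm window. Its log2 fold change of met-2 set-25 over wild-type was 0.87 (SE 0.28) and did not pass (adjusted p = 0.469). Without it the left arm took 3.87% and 3.77% in met-2 set-25, 3.82% and 3.88% in cec-4 and 3.76% and 3.77% in wild-type, and the mean difference of met-2 set-25 from wild-type was 0.0563 percentage points. The shares of met-2 set-25 and cec-4 then overlapped. With the highest 1% of arm windows (233) left out, the mean difference from wild-type was 0.0360 in met-2 set-25 and 0.0898 in cec-4. The order of the 2 mutants therefore depended on a few windows with many counts. The next windows by share lay in htz-1, which encodes a histone H2A variant, and in rps-23, a ribosomal protein gene, with log2 fold changes of 0.16 and 0.0035 in met-2 set-25 over wild-type.

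**Figure D4:**
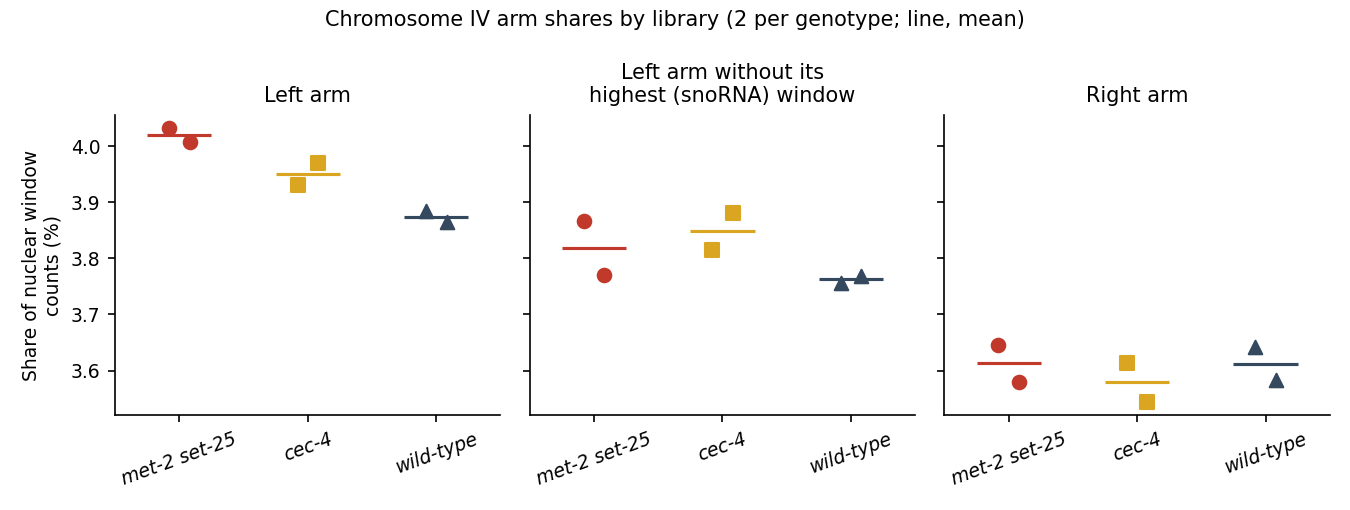
Share of nuclear window counts (%) in the left arm, the left arm without window IV 4538501 (a snoRNA gene), and the right arm, for met-2 set-25, cec-4 and wild-type from left to right (points, libraries; lines, means; the axis does not start at 0). Left arm points of met-2 set-25 lie at 4.01% and 4.03% and move to 3.77% and 3.87% without that window.

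At the level of genes, the table of gene counts held 1867 genes that start in the arms, of which 1209 were tested. Between met-2 set-25 and wild-type, 8 were higher in met-2 set-25, 5 left and 3 right, against 0.659% over all genes (0.662% in the arms), and 0 were lower against 0.0287%. At an unadjusted p under 0.05 in edgeR, 78 were higher and 14 lower, against 652 higher and 145 lower of all genes (5.71% in either direction). DESeq2 called 21 higher and 2 lower and limma voom 9 higher and 0 lower. The share of arm genes that were higher lay near the share over all genes. Without met-2 set-25 replicate 1 or its replicate 2 the count was 0, and without wild-type replicate 2 it was 4. In cec-4 against wild-type 0 were higher or lower, against 0.00717% and 0% over all genes. Unadjusted, 3 were higher and 10 lower, against 41 higher and 90 lower of all genes (0.939% in either direction). DESeq2 and limma voom called 0 in the arms.

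The pseudogene Y54G2A.21 had 47.6 and 44.6 CPM in met-2 set-25, against 13.9 and 15.8 in cec-4 and 17.9 and 15.2 in wild-type (log2 fold change over wild-type 1.48, SE 0.21, adjusted p = 0.0260). Y105C5B.20 had 24.8 and 21.3 CPM in met-2 set-25, against 2.41 and 1.55 in cec-4 and 3.02 and 1.48 in wild-type (3.35, SE 0.41, adjusted p = 0.0156). F35F11.2 had 2.12 and 2.21 CPM in met-2 set-25, against 0.250 and 0.351 in cec-4 and 0.219 and 0.119 in wild-type (3.64, SE 0.45, adjusted p = 0.0156). The others that passed were Y54G2A.36 (log2 fold change 2.08), F38A1.15 (2.41), Y45F10C.6 (2.98), the pseudogene Y105C5A.14 (1.20) and clec-73 (3.83), a C-type lectin gene that averaged under 1 CPM and is named after its value was seen. Y54G2A.36, Y45F10C.6 and Y105C5A.14 each overlap another gene on the opposite strand, so part of their counts may belong to it. Against cec-4, 8 genes were also higher in met-2 set-25 (0.609% over all genes). Of these 7 were among the 8 over wild-type, and ZK180.5 (2.14, adjusted p = 0.0392) took the place of clec-73. That count was 1 without cec-4 replicate 1, 0 without cec-4 replicate 2 or without 1 of the met-2 set-25 libraries, and 16 and 18 without wild-type replicates 1 and 2.

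**Figure D5:**
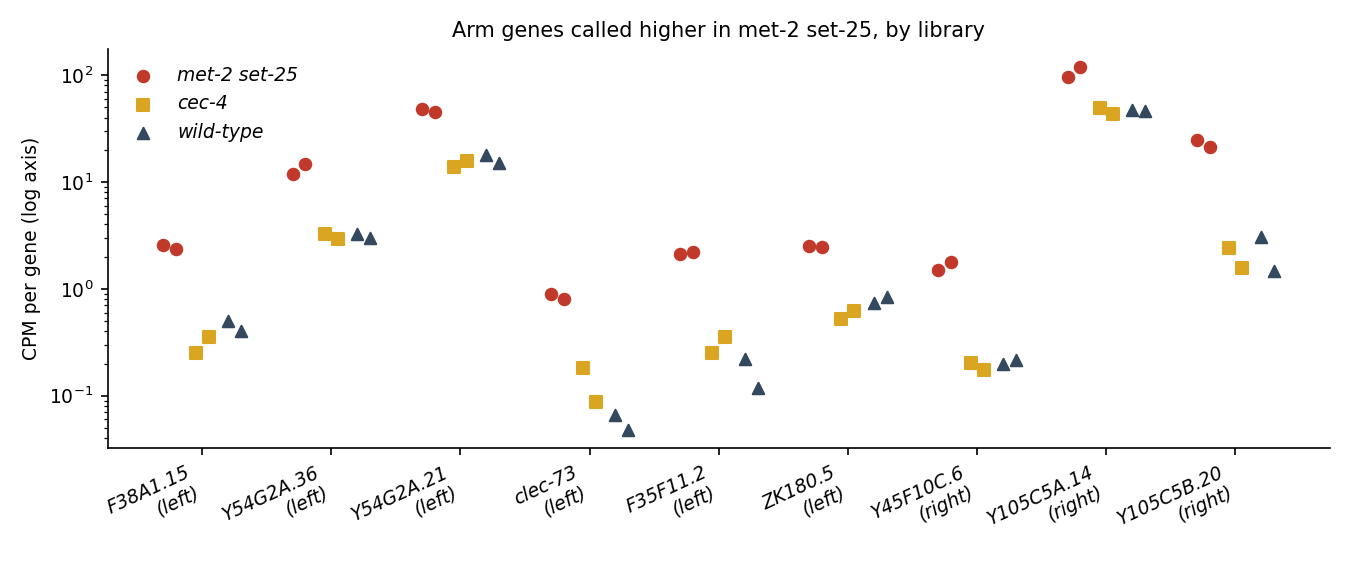
CPM per gene (log axis, not scaled by length) of the 9 arm genes called higher in met-2 set-25 over wild-type or over cec-4, 1 point per library, with met-2 set-25, cec-4 and wild-type from left to right for each gene. The met-2 set-25 points lie above all others for every gene shown, from 0.811 CPM at clec-73 to 118 CPM at Y105C5A.14. The genes were chosen by these comparisons.

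Families that are common on the arms had few tested genes, so their counts are given as values beside the 0.659% of all genes tested that were higher. The gene table held 112 chemoreceptor genes of the arms, of which 20 were tested and 0 passed between met-2 set-25 and wild-type. Their median log2 fold change was -0.12, beside -0.026 over all genes tested. Among C-type lectins, 17 of 51 were tested and 1, clec-73, was higher (median 0.18). Of the F-box, MATH and BTB genes 14 were tested, as were 14 nuclear hormone receptors and 14 genes with collagen or cuticle symbols, and 0 passed in each (medians 0.066, -0.050 and 0.26). The last list, read by symbol, includes dpy-26, which encodes a condensin subunit and no cuticle protein. Annotated pseudogenes gave 2 higher genes of 34 tested, both described above, with a median of 0.058. The genes C48D1.9, Y55F3AM.21 and K08D12.8, which lie under higher windows, are not in the gene table, so their levels come from the windows alone.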

How the data were processed

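The authors deposited raw read counts per window of 500 bp and per gene; gene width, in bases, is a deposited column of another kind and was not analysed. Their normalized gene values were not used. Libraries were made with a ScriptSeq kit from 50 ng of RNA depleted of ribosomal RNA and read for 51 cycles in pools of 3, per the labels' protocols. The aligner, the build, strand use and the treatment of reads with several matches: not given in the sources used here. Windows of chromosome IV end at 17493785 in the table, and no position was converted. Genes were named from the WBcel235 annotation (RefSeq names where it had none); correlations of gene counts with windows over coding exons, at shifts of up to 2000 bp, were highest at no shift (r 0.929 to 0.975).

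edgeR 4.0.16 (R 4.3.3) tested all windows and genes, with filterByExpr by genotype, TMM scaling, quasi-likelihood test on all 6 libraries with genotype as the term, and Benjamini-Hochberg adjustment over 108036 windows or 13951 genes. DESeq2 1.42.0 and limma 3.58.1 (voom) were alternatives. CPM uses TMM-adjusted totals, at which 3 counts are 0.0334 to 0.0515 CPM. SE is the log2 fold change divided by the root of the F statistic. Shares of counts have 95% Wilson intervals of at most 0.00638 points to either side, for counting error only. Scripts were tested on simulated data. Replicates differed by more than sampling noise (chi-square per degree of freedom 9.28 to 16.9 over arm windows).

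The members, gene lists and rules were chosen with earlier results of these data known. Named windows were up to 5 per comparison, direction and arm by fold change, with adjusted p under 0.05, a mean count of at least 10 in the higher genotype and separated replicates (the 5 of smallest p where fewer than 5 passed); named runs had 3 or more windows; named genes passed the test with at least 1 CPM, or lay under those windows.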

Additional observations from a re-analysis of the deposited data

How the results depend on the processing

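In cec-4 against wild-type the counts of higher and lower arm windows and arm genes were 0 under every alternative run. For met-2 set-25 over wild-type, the 67 higher windows became 37 with scaling factors from the gene table, 133 with no low-count filter, 30 at an adjusted p under 0.01 and 44 without the densest stretch (an alternative chosen after seeing the data), with 18 to 95 on leaving out 1 library; the 34 runs became 20, 75 and 18 under the first 3 of these (7 to 49 on leaving out 1 library), and the longest run, of 11 windows, had 5 with the gene table's factors and at 0.01 (4 to 12). The 0 lower windows became 10 with no filter, 2 with DESeq2 and 1 with only the 2 genotypes compared (0 to 12). For met-2 set-25 over cec-4, the 65 higher windows became 42 with the gene table's factors, 164 with no filter, 129 with only the 2 genotypes, 39 at 0.01 and 40 without the densest stretch (27 to 148); the 32 runs became 94 with no filter, 49 with DESeq2, 69 with the 2 genotypes and 21 at 0.01 (15 to 81), and their longest, of 11, had 5 with the gene table's factors and at 0.01 and 19 with no filter or only the 2 genotypes (5 to 19). The 1 lower window became 3 with DESeq2 size factors, 31 with no filter, 5 with DESeq2, 10 with the 2 genotypes, 2 with windows of 1000 bp and 0 at 0.01 (0 to 22). The gene table's factors moved the median of all windows to -0.12 in met-2 set-25 over wild-type, 0.091 in cec-4 over wild-type and -0.20 in met-2 set-25 over cec-4.

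Arm genes higher in met-2 set-25 over wild-type, 8 in the report, were 21 with no filter, 21 with DESeq2 and 0 at 0.01 (0 to 8 on leaving out 1 library), and lower ones 1 and 2 under the first 2 (0 to 2). Over cec-4 the 8 became 26 with no filter, 22 with DESeq2, 19 with the 2 genotypes and 0 at 0.01 (0 to 18), and the 0 lower became 3 under each of the first 3 (0 to 3). No named window or gene changed sign under any alternative. They had been chosen as called and had separated replicates, so the stable sign is no separate support. Many lost their call in 1 or more alternatives: 29 of 43 windows and all 8 genes over wild-type, and 21 of 40 windows and all 8 genes over cec-4. The samples share replicate numbers, but the labels give the numbers no meaning: over arm windows the deviations of equal numbers correlated at -0.0046 between met-2 set-25 and cec-4, 0.12 between met-2 set-25 and wild-type and 0.54 between cec-4 and wild-type. With a replicate block, met-2 set-25 over wild-type gave 97 higher and 2 lower windows and 19 higher and 1 lower gene, and over cec-4 115 higher and 7 lower windows in 62 runs, and 27 higher and 3 lower genes.

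With 2 libraries each, the left arm share of nuclear counts differed from wild-type by more than the replicate spread and the right arm share by less. This did not hold in met-2 set-25 without the window of the small nucleolar RNA gene ZK185.9. The left arm then took 3.87% and 3.77% in met-2 set-25, 3.82% and 3.88% in cec-4 and 3.76% and 3.77% in wild-type. The mean difference of met-2 set-25 was then smaller than the gap between its own libraries. As a share of all window counts, both mutants overlapped wild-type in the left arm. The left arm's cec-4 minus wild-type difference turned to -0.0863 percentage points as a share of all window counts. The right arm's was 0.0047 without the highest 1% of windows, and leaving out 1 library gave -0.067 to 0.0022 in cec-4 and -0.032 to 0.034 in met-2 set-25, whose value reversed without met-2 set-25 replicate 1 or wild-type replicate 2. The cause of these changes was not tested. Calls rest on 2 libraries per genotype, windows under about 1 CPM carry few counts, and 12560 arm windows were too low to test.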

Other observations

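Among the single higher windows outside the rule for named windows, chosen here after their values were seen, several lay at genes or transcripts with a known class. IV 2673501 in gpx-4, a gene of the glutathione peroxidase family, had 72 and 55 counts in met-2 set-25, against 35 and 25 in cec-4 and 21 and 16 in wild-type (log2 fold change over wild-type 2.21, SE 0.41, edgeR adjusted p = 0.0296). IV 13636501 in the pseudogene C08F11.6 had 59 and 76 counts in met-2 set-25, against 17 and 11 in cec-4 and 13 and 11 in wild-type (2.88, SE 0.41, edgeR adjusted p = 0.00441). Non-coding RNA genes held 2 more. The window of W03D2.15 at IV 4071001 had 955 and 1458 counts in met-2 set-25, against 518 and 324 in cec-4 and 618 and 363 in wild-type. IV 17220001 touched both the non-coding RNA gene Y116A8B.98 and the long non-coding RNA gene linc-86, so its reads cannot be assigned to either. It had 257 and 338 counts in met-2 set-25, against 148 and 109 in cec-4 and 165 and 108 in wild-type.

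Some family members had large differences that did not pass. The chemoreceptor gene srw-61 had 19 and 15 counts in met-2 set-25, against 5 and 5 in cec-4 and 3 and 2 in wild-type (log2 fold change over wild-type 3.04, edgeR adjusted p = 0.108). The collagen genes col-107 and col-104 differed between the met-2 set-25 cultures, with 20 and 62 counts and 32 and 79 counts, against 12 and 12 and 22 and 18 in wild-type (edgeR adjusted p = 0.218 and 0.299).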
